A study of Mus musculus with 3 samples.

Results

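The alpha and beta defensins, with the cathelicidin Camp, the lysozymes Lyz1 and Lyz2 and the mucosal pentraxins Mptx1 and Mptx2, were read in polyadenylated RNA of mouse distal colon. The members were taken by gene symbol and numbered 67 of the 24346 gene symbols in the files: 16 alpha defensins, 3 alpha defensin pseudogenes, 43 beta defensins, Camp, 2 lysozymes and 2 Mptx genes. The pseudogene Defb44-ps is counted among the beta defensins. The choice went by symbol and used no measured value, but it was made with earlier results of these data known. Because 36.2% of the alpha defensin signal turned out to be listed under Gm symbols that the choice by name missed, 14 further alpha defensins, and a second symbol for the member Defb41, were matched by RefSeq accession and are given apart. The symbols Ang, Ang4 and Pla2g2f served as context.

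All samples belong to 1 group. They are labelled as distal colon of wild-type JAX mice of 8 weeks, at steady state. The series has 3 files, labelled replicates 1, 2 and 3, and no control or treated group, so that every result is a level in this tissue or a comparison between genes. The file names share 1 index and 1 lane and differ in a part number, and no more spread was found between them than sampling noise gives over most genes, so they were counted as 1 sample. Each mean ± SD is therefore the measurement error over 3 files (n = 3 files) and holds no spread between animals. Depth, worked out from the authors' confidence bounds, came to 3780640 and 3786220 mapped fragments for replicates 1 and 2 and to 1243460 for replicate 3. Of 8771 genes tested for spread between the files by a chi-square test with Benjamini-Hochberg adjustment, 9 (0.103%) were called. None of the 13 members tested was among them. Levels are FPKM, fragments scaled to transcript length and to mapped fragments, so that levels of different genes can be set side by side. Fewer cells of a type and less RNA per cell cannot be told apart in RNA of a whole tissue.

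Defensins are small cationic peptides, held by disulfide bonds, that disrupt microbial membranes. In mice the enteric alpha defensins, also called cryptdins, are packed in the granules of Paneth cells at the base of small intestinal crypts, are cut to their active form by the metalloprotease Mmp7 and are released into the lumen with lysozyme and other antibacterial proteins. Paneth cells are rare or absent in the healthy mouse colon, where deep crypt secretory cells and goblet cells occupy the crypt. Beta defensins are made by many epithelia, and a large part of the mouse family is known from the epididymis.

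A mean of 1 FPKM or more was reached by 15 of the 67 members (22.4%), against 51.9% of all gene symbols. A value of 0 in every file was listed for 46 of the 67 (68.7%), against 29.9% of all gene symbols. The transcripts of the members run from 167 to 1265 bases, and short genes are at 0 more often. Of 4082 other genes of 174 to 1002 bases, 64.4% were at 0 in every file, a share near that of the members. No such share was worked out for a mean of 1 FPKM or more. The members at or above 1 FPKM were both Mptx genes, both lysozymes, 10 alpha defensins and 1 beta defensin. In 7 of them the authors' lower 95% confidence bound lay above 0 in every file. These were Mptx1, Mptx2, Lyz1, Lyz2, Defa24, Defa17 and Defa3. The share of all gene symbols with such a bound was not worked out. The plot of levels by file spans Mptx1 at the top and alpha defensins with 0 in some files at the bottom.

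**Figure D1:**
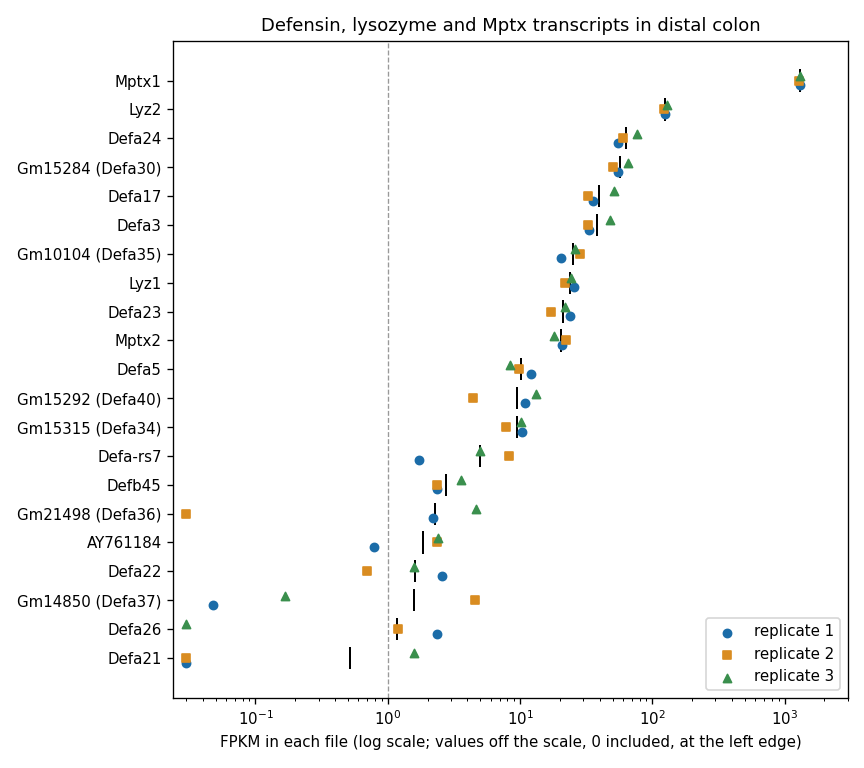
FPKM in each of the 3 files (points, log axis) for members with a mean of 0.5 FPKM or more and for alpha defensins of that level listed under Gm symbols (RefSeq symbol in brackets), with a black bar at the mean and a dashed line at 1 FPKM. Values off the scale, 0 included, are drawn at the left edge. Mptx1 at 1296 FPKM stands apart, the 4 highest alpha defensins lie between 38.05 and 63.6 FPKM, and the widest spreads between files are those of genes under 5 FPKM.

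Mptx1, a pentraxin known from the colonic mucosa, had by far the highest level among the members. It had 1307, 1274 and 1306 FPKM in replicates 1, 2 and 3 (mean 1296 ± 18.6), from about 6938 fragments, and ranked 35th of all gene symbols with 0.303% of the summed FPKM. Mptx2, its neighbour in the family and a marker of mouse Paneth cells, had 20.9, 22.1 and 17.9 FPKM (mean 20.3 ± 2.14, about 92.5 fragments). The ranges of the 2 genes lay far apart in every file, and the level of Mptx1 was 64.4 ± 7.73 times that of Mptx2 (62.5, 57.7 and 72.9 in replicates 1, 2 and 3). Mptx1 lies on chromosome 1 (GRCm38, 174330518 to 174332877) and Mptx2 also on chromosome 1 (173274461 to 173277756).

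The pair has similar sequence, which bears on how reads can be assigned. Their coding sequences of 660 bases differ at 53 bases (92.0% identical) and share an unbroken run of 109 bases. Of the 50-base stretches of the Mptx2 transcript, 18.0% also occur in Mptx1. The 90 bases shown are coding positions 535 to 624, a window that holds 15 of the differences, in capitals, and so can tell the genes apart. Sequences are those of GENCODE M21 transcripts on GRCm38, written 5′ to 3′ along the transcript. Mptx1 is read from chr1:174332664-174332753 on the plus strand and Mptx2 from chr1:173274497-173274586 on the minus strand.
Mptx1: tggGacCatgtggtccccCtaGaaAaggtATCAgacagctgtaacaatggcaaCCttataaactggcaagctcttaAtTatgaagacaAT
Mptx2: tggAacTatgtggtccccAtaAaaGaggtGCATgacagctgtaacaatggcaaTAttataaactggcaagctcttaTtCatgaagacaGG

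The deposited coverage gave a second measure of how the fragments of each gene were placed. Coverage over FPKM and depth gives the aligned bases per fragment, which ran from 76 to 152 bases over genes and was read as 1 or both reads of 76 bases. Both reads were placed in 93.7%, 94.2% and 94.5% of the Mptx1 fragments. In Mptx2 the share was 17.1%, 22.6% and 13.5%. Other single-isoform genes under 1300 bases with over 10 fragments had medians of 93.5% to 93.8% and 1st percentiles of 49.8% to 60.7%, so that Mptx2 lay under the 1st percentile in every file. Most Mptx2 fragments were thus single reads, and the shared run of 109 bases is longer than a read of 76 bases. Whether reads of Mptx1 were counted for Mptx2 was not tested.

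**Figure D2:**
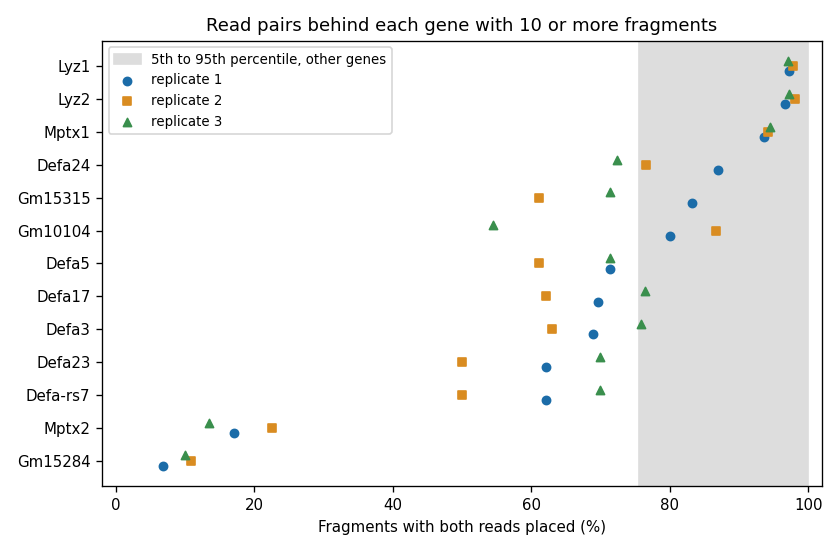
Percentage of fragments with both reads placed (x axis) in each of the 3 files (points) for defensin, lysozyme and Mptx genes with 10 or more fragments over the 3 files, with the 5th to 95th percentile of other genes shaded. Mptx1, Lyz1 and Lyz2 lie between 93.7% and 98.1%, while Mptx2 and the alpha defensin Gm15284 lie between 6.8% and 22.6%.

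Lysozyme, which cuts the peptidoglycan of bacterial cell walls, is encoded by a pair of neighbouring genes in mice. Lyz1 is the form known from Paneth cells and Lyz2 the form known from macrophages and other myeloid cells. Lyz2 had 124, 122 and 130.0 FPKM (mean 125 ± 4.26, about 942 fragments). Lyz1 had 25.4, 21.9 and 24.4 FPKM (mean 23.9 ± 1.85, about 224 fragments). The 2 genes did not overlap in any file, and Lyz2 stood at 5.25 ± 0.353 times the level of Lyz1. Both lie on chromosome 10 (GRCm38), Lyz2 at 117277541 to 117282272 and Lyz1 at 117287795 to 117292868.

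The lysozymes could be told apart over most of their length. Of the 50-base stretches, 84.6% of those in Lyz2 and 83.9% of those in Lyz1 occur in no other gene's transcript. Both reads were placed in 96.7% to 98.1% of the Lyz2 fragments and in 97.1% to 97.8% of the Lyz1 fragments. Their coding sequences of 447 bases differ at 22 bases (95.1% identical), with a longest shared run of 118 bases. The windows shown, coding positions 43 to 132, hold 13 of these differences, in capitals. Lyz2 is read from chr10:117282111-117282200 and Lyz1 from chr10:117292707-117292796, both on the minus strand.
Lyz2: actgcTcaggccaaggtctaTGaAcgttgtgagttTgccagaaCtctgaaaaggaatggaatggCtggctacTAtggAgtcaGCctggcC
Lyz1: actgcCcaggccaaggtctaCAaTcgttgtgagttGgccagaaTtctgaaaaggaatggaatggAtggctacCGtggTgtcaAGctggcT

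Macrophage markers were present in the same RNA. Of all gene symbols, 51.9% reached a mean of 1 FPKM and 29.9% were at 0 in every file. Of 12 macrophage genes, 10 reached a mean of 1 FPKM and none was at 0 in every file. Their summed level ranged from 116 to 124 FPKM over the files. The complement subunit C1qa had a mean of 30.8 FPKM and the receptor of the macrophage growth factor, Csf1r, a mean of 7.54 FPKM. Their part in the Lyz2 level was not tested. Camp, the cathelicidin that neutrophils store in granules, had 0.606 FPKM in replicate 1, which is about 1 fragment, and was listed at 0 in replicates 2 and 3. None of 13 neutrophil genes reached 1 FPKM and 9 were at 0 in every file, with a summed level of 1.10 to 1.21 FPKM.

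The alpha defensins lie in 1 cluster on chromosome 8, from 21025545 to 21735471 on GRCm38. The 16 members summed to 169, 172 and 221 FPKM in replicates 1, 2 and 3 (mean 187 ± 29.4, 0.0438% of the summed FPKM), from about 383 fragments. Of these members, 10 (62.5%) averaged at least 1 FPKM, against 51.9% of all gene symbols. Another 5 lay above 0 but under 1 FPKM, and Defa25 was at 0 in every file, with a limit of 2.88 FPKM. The limit given for a gene at 0 corresponds to 3 fragments summed over the 3 files, and it holds counting error alone. The 3 pseudogenes Defa-ps1, Defa-ps12 and Defa-ps13 were at 0 in every file.

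Defa24, a Paneth cell cryptdin, had the highest level of the alpha defensins taken by symbol. It had 54.7, 59.8 and 76.3 FPKM in replicates 1, 2 and 3 (mean 63.6 ± 11.3), from about 129.5 fragments, with lower 95% bounds of 39.2, 43.6 and 44.3 FPKM. Defa17 had 35.3, 32.8 and 51.1 FPKM (mean 39.8 ± 9.93), and Defa3 had 33.4, 32.7 and 48.1 FPKM (mean 38.05 ± 8.69). In these 3 genes replicate 3, the shallowest file, was highest, but the spread between files did not pass the chi-square test (adjusted p = 0.997 for each). Defa24 lay above Defa17 and Defa3 in every file, while the values of Defa17 and Defa3 differed by less than their spread.

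Lower alpha defensins rested on few fragments. Defa23 had 23.8, 17.3 and 22.0 FPKM (mean 21.01 ± 3.36), and Defa5 had 12.1, 9.88 and 8.41 FPKM (mean 10.1 ± 1.87, about 23.1 fragments). Defa-rs7 had 1.71, 8.26 and 4.98 FPKM (mean 4.98 ± 3.27), but it has no sequence of its own beside Defa23, and these 2 levels cannot be told apart. AY761184 had 0.784, 2.37 and 2.39 FPKM (mean 1.85 ± 0.920), and Defa22 had 2.58, 0.694 and 1.57 FPKM (mean 1.61 ± 0.943). Defa26 had 2.36, 1.19 and 0 FPKM (mean 1.18 ± 1.18). Defa21 was at 0 in replicates 1 and 2 and at 1.57 FPKM in replicate 3 (mean 0.523 ± 0.906). Each of these last 4 genes rested on under 5 fragments in all, and their order was not resolved by the spread between files.

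Much of the family carries other names in the files. RefSeq on GRCm38.p6 gives Defa-rs7 as Defa31 and AY761184 as Defa39, and it names 14 further alpha defensins that the files list under Gm symbols. These 14 were found and named after their values were seen. Gm15284 (Defa30) had 55.1, 50.6 and 65.5 FPKM (mean 57.1 ± 7.68), which overlapped the level of Defa24 and was the higher of the 2 in replicate 1. Gm10104 (Defa35) had 20.5, 28.6 and 26.1 FPKM (mean 25.1 ± 4.12). Gm15292 (Defa40) had 10.8, 4.40 and 13.2 FPKM (mean 9.47 ± 4.55), and Gm15315 (Defa34) had 10.3, 7.80 and 10.2 FPKM (mean 9.43 ± 1.41). The 14 genes summed to 106 ± 12.1 FPKM, or 36.2% ± 0.945 of the 293 ± 41.5 FPKM of all 30 alpha defensins. The 4 highest, Defa24, Gm15284, Defa17 and Defa3, held 67.5% ± 2.90 of that sum.

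The sequences bear on how far a level can be assigned to a single gene. The last 105 coding bases, which lie in 1 exon and encode most of the mature peptide and the stop codon, are given for the 7 highest alpha defensins and for Defa-rs7, the partner of Defa23. Capitals mark bases that differ from Defa24. All lie on chromosome 8, plus strand, on GRCm38 from GENCODE M21 transcripts: Defa24 at chr8:21735273-21735377, Gm15284 at chr8:21135399-21135503, Defa17 at chr8:21656537-21656641, Defa3 at chr8:21288179-21288283, Defa23 at chr8:21055817-21055921, Defa-rs7 at chr8:21192350-21192454, Gm10104 at chr8:21065804-21065908 and Defa5 at chr8:21298177-21298281.
Defa24: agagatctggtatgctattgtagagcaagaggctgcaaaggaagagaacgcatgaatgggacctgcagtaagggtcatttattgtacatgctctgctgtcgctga
Gm15284: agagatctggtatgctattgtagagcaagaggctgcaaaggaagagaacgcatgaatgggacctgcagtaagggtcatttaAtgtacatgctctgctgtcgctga
Defa17: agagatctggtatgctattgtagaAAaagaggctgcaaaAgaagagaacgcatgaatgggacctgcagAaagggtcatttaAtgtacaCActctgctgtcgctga
Defa3: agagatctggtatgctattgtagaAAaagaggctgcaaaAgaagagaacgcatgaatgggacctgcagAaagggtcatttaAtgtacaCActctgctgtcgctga
Defa23: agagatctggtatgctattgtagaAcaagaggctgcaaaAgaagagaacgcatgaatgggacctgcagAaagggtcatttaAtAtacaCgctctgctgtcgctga
Defa-rs7: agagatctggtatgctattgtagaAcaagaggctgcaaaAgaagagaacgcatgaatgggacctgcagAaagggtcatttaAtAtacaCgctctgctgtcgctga
Gm10104: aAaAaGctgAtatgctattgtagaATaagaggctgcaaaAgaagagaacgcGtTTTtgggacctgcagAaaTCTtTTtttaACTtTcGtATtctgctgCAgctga
Defa5: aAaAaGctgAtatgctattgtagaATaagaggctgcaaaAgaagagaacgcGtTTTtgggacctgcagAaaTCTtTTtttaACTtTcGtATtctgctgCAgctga

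In these 105 bases Gm15284 differs from Defa24 at 1 base, and at 4 of the 282 coding bases in all. Defa17 and Defa3 are identical over the whole coding sequence, and so are Defa23 and Defa-rs7. Gm10104 and Defa5 are identical over the bases shown and differ at 3 bases of the whole coding sequence. The set thus falls into 2 kinds, one close to Defa24 with up to 7 differences and one close to Defa5 with 26.

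Over the 28 alpha defensins with a coding sequence, the 378 pairs were 61.9% to 100% identical, with a median of 83.0%. In 37 pairs the identity was 97% or more. The coding sequence was identical in 6 pairs: Defa17 and Defa3, Defa23 and Defa-rs7, Defa2 and Gm21002, Defa20 and Gm15308, Gm14850 and Gm21498, and Gm7849 and Gm7861. AY761184, Gm14851, Gm7849 and Gm7861, with a longer coding sequence of 351 bases, form a block of their own in the plot of identity. No sequence was matched for Defa4 and Defa6.

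**Figure D3:**
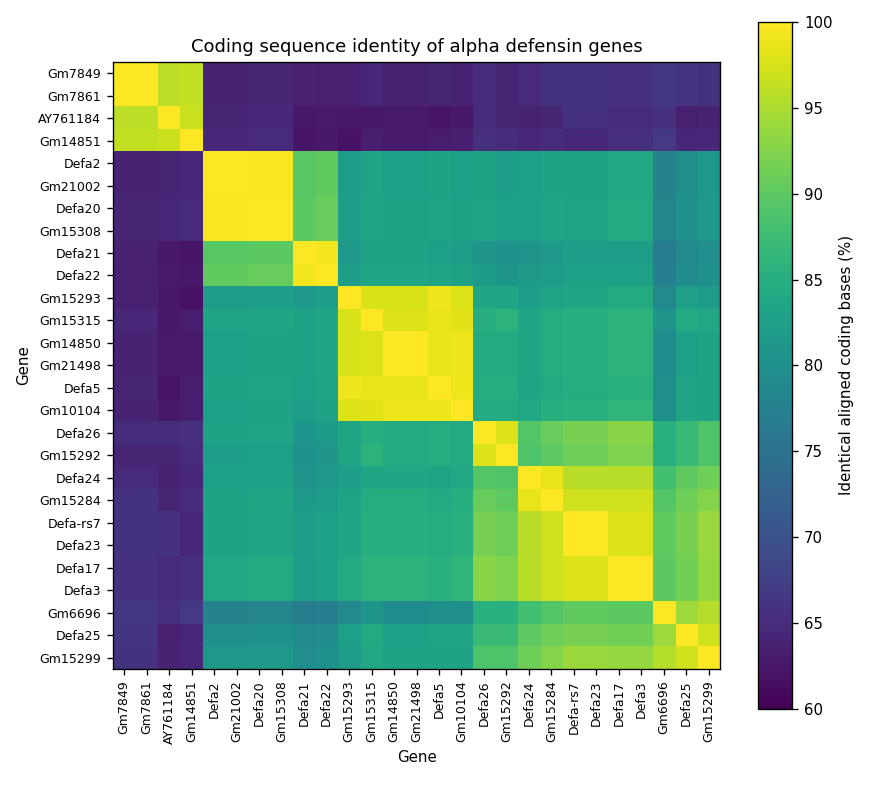
Percentage of identical aligned coding bases for each pair of 27 alpha defensin genes (both axes, ordered by average linkage; colour scale from 60% to 100%). Yellow blocks are groups of closely related genes, among them Defa24 with Gm15284, Defa17, Defa3, Defa23 and Defa-rs7, and Defa5 with Gm10104, while the block of AY761184 is dark against all others.

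The share of a transcript that belongs to 1 gene alone varied widely. Of the 50-base stretches of Defa24, 71.9% occur in no other gene's transcript, and of those of Gm15284 47.6%. The share was 8.05% in Defa17, 7.76% in Defa3, 5.25% in Defa23 and 0.306%, a single stretch, in Defa5. Defa-rs7, Defa2 and Defa20 had none. In all, 11 of the 14 members with a sequence had at least 1 stretch of their own, and these 11 held 181 of the 187 FPKM summed over members. When up to 2 mismatches were allowed, the count fell to 5 members and the share in Defa24 to 2.97%. With exact 76-base stretches, the length of 1 read, it was 94.2% in Defa24 and 80.8% in Gm15284, but 8.70% in Defa17 and 2.99% in Defa5.

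**Figure D4:**
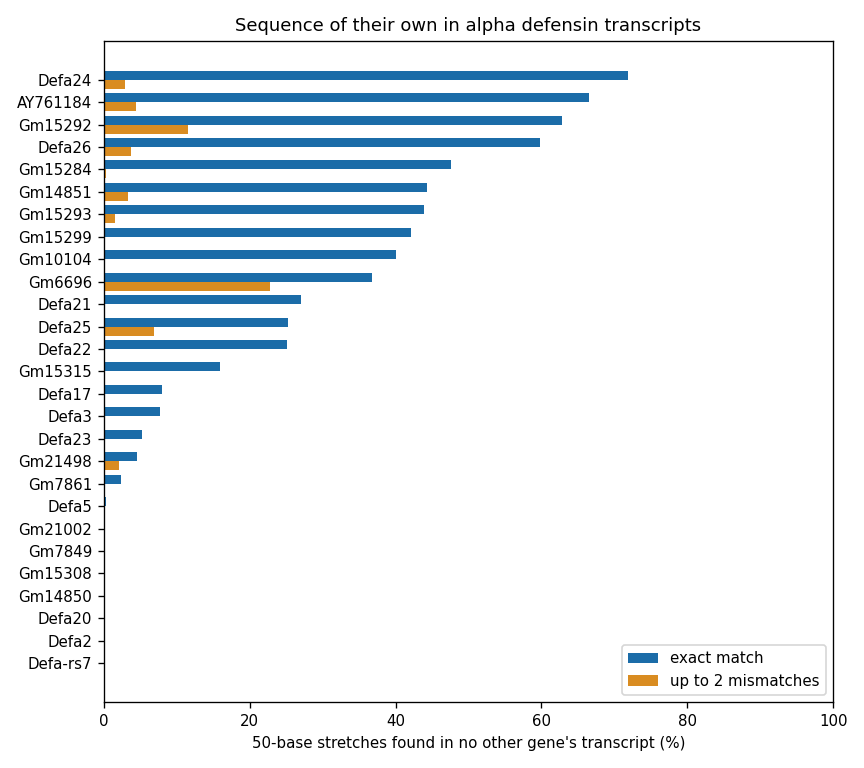
Percentage of the 50-base stretches of each of 27 alpha defensin transcripts (rows) that occur in no other gene's transcript, by exact match (blue bars) and with up to 2 mismatches allowed (orange bars). Defa24 leads the exact matches with 71.9%, 7 genes have none, and with 2 mismatches Gm6696 leads with 22.8% and Defa24 has 2.97%.

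Some deposited values were the same for different near-identical genes, or at 2 places of 1 gene. In replicate 2, Defa2, Defa20, Gm15308 and Gm21002 had the same level within rounding of length, 1.18 to 1.19 FPKM, which together made about 4.48 fragments, and all 4 were at 0 in replicates 1 and 3. In replicate 3, Defa21 and Defa22 each had 1.57 FPKM, together about 0.957 fragments of 76 aligned bases. That is about 1 read over the 2 genes together, and how it was assigned was not tested. Defa23 and Defa-rs7 are each listed at 2 places, at 21055040 and at 21191573, with the same value at both.

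At each of these 2 places the transcripts of Defa23 and Defa-rs7 lie on top of each other and end 1 base apart. At each place Defa23 had 11.9, 8.63 and 11.0 FPKM and Defa-rs7 0.855, 4.13 and 2.49 FPKM. The proportion of the 2 levels differed from file to file, while their sum was 12.7, 12.8 and 13.5 FPKM. Gm21498 and Gm14850, also listed at 2 places on top of each other, also had unequal levels. At each place Gm21498 had 1.10, 0.00265 and 2.31 FPKM, while Gm14850 had 0.0240, 2.28 and 0.0833 FPKM, and their sum was 1.12, 2.28 and 2.39 FPKM. The levels of these 4 symbols cannot be told apart within each pair.

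Defa4 and Defa6 were close to 0, and both overlap a longer defensin. Defa4, of 167 bases in the files, lies inside the span of Gm10104, and Defa6, of 282 bases, inside the span of Defa24. Their levels were at most 0.00543 FPKM for Defa4 and 0.0617 FPKM for Defa6. The upper 95% bounds were wide, however, at 19.9, 20.5 and 60.7 FPKM for Defa4 and 4.33, 4.40 and 13.2 FPKM for Defa6. Whether fragments of these genes were counted for the longer neighbour was not tested.

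Read pairs were also placed less completely in alpha defensins than in other genes. Of the alpha defensins with over 10 fragments in a file, 5 of 7 in replicate 1, 4 of 5 in replicate 2 and 4 of 4 in replicate 3 lay under the 5th percentile of other genes (75.5%, 77.4% and 76.8%). The other genes were those under 1300 bases, and a set as short as the alpha defensins was not compared. Defa24 had both reads placed in 87.0%, 76.6% and 72.4% of its fragments, and Defa17 in 69.7%, 62.2% and 76.5%. Gm15284 stood lowest, with 6.8%, 10.9% and 10%, so that its level rests almost wholly on single reads. This gene differs from Defa24 at 4 coding bases, and its part of fragments from other defensins was not tested.

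Further genes of Paneth cells, secreted products together with transcription factors, receptors and ligands that regulate these cells, were read as 1 list. Of its 23 genes with values, members left out, 18 reached a mean of 1 FPKM, against 51.9% of all gene symbols. Their median was 8.99 FPKM, with a summed level of 380 to 420 FPKM over the files. The highest were Xbp1, a transcription factor of secretory cells, at 82.4 FPKM, the lectin Reg3b at 64.3 FPKM, Nupr1 at 46.5 FPKM and the Wnt effector Tcf7l2 at 43.3 FPKM. The ribonucleases Ang5 and Ang6 were at 0 in every file. These highest genes are also known from cells other than Paneth cells. Mmp7, the protease that activates cryptdins in mice and a gene named after its values were seen, was at 0, 1.11 and 0 FPKM. Other products on the list, also named after their values were seen, lay higher. Mean levels were 31.2 FPKM for Reg3g, 11.3 FPKM for Clps, 7.53 FPKM for Pla2g2a, 5.25 FPKM for Itln1 and 1.19 FPKM for Reg3a.

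Of the context genes, the phospholipase gene Pla2g2f had 11.7, 12.2 and 13.1 FPKM (mean 12.3 ± 0.680). The ribonuclease gene Ang4, known from Paneth and colonic secretory cells of mice, had 1.99, 2.49 and 3.02 FPKM (mean 2.50 ± 0.518). Pla2g2f lay above Ang4 in every replicate, and within each gene the 95% bounds of the replicates overlapped. Ang had 21.5, 18.7 and 10.1 FPKM (mean 16.8 ± 5.96), lower in replicate 3 than in replicates 1 and 2. Its 2 isoforms were weighted differently there: the shorter had 18.5, 15.8 and 0.237 FPKM and the longer 3.01, 2.91 and 9.82 FPKM.

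Genes of small intestine enterocytes were also measured in this RNA. Whether cells of the colon also make them cannot be told with 1 tissue. Of 22 such genes, 15 reached a mean of 1 FPKM, against 51.9% of all gene symbols. At 0 in every file was 1 of them, against 29.9%, and their summed level was 404 to 444 FPKM. The highest were the bile acid carrier Fabp6 with a mean of 95.6 FPKM, the peptide transporter Slc15a1 with 85.3 FPKM, the fatty acid carrier Fabp2 with 41.7 FPKM and the glucose transporter Slc5a1 with 41.3 FPKM. The lactase gene Lct had 0.0440 FPKM, and Gata4, a factor of the proximal small intestine, was at 0. Other genes of the list went both ways. Apoa1 had a mean of 40.3 FPKM, Rbp2 36.6 FPKM and Fabp1 28.8 FPKM. Of genes known from the ileum, the bile acid transporter Slc10a2 had 1.26, 0.541 and 0 FPKM and the hormone gene Fgf15 0, 0.161 and 0 FPKM. All of these were named after their values were seen. Deep crypt secretory and goblet cell genes, of which many are also made by goblet cells of the small intestine, reached 1 FPKM in 9 of 10 cases, with a summed level of 8414 to 8578 FPKM. RNA of small intestine and Paneth-type cells within the colon cannot be told apart with 1 group, and the part of either in the alpha defensin levels was not tested.

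Beta defensins were almost wholly at 0. Of 43 members, 42 were at 0 in every file (97.7%), 24 of 24 on chromosome 8, 10 of 11 on chromosome 2, 5 of 5 on chromosome 14 and 3 of 3 on chromosome 1. The pseudogene Defb44-ps is counted among those on chromosome 1. Gm15386, a second symbol whose transcript RefSeq assigns to Defb41, was also at 0. Short genes are at 0 more often, and of 4082 other genes of the same range of length, 174 to 1002 bases, 2627 (64.4%) were at 0 in every file. The exception was Defb45 on chromosome 2 (152593191 to 152596485), with 2.35, 2.37 and 3.57 FPKM (mean 2.76 ± 0.699). That level came from about 4.94 fragments over the 3 files, and its lower 95% bound was 0 in every file. No 50-base stretch of Defb45 occurs in another gene's transcript.

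How much a value of 0 says depended on transcript length. For 41 of the 42 beta defensins at 0 a limit could be set, from 0.421 to 7.68 FPKM with a median of 1.83 FPKM, and it lay under 1 FPKM for only 8. Defb1, which epithelia make constitutively, had a limit of 0.471 FPKM. For Defb4, Defb14 and Defb3, known as inducible forms in mice, the limits were 1.19, 2.07 and 2.17 FPKM. These genes were thus not detected at this depth, and a level of 1 FPKM lies under the limit for most of the family. Defb38 had the highest limit, 7.68 FPKM, and Defb46, of 174 bases, was too short for one. The limits rest on the listed lengths, which differ from those of the GENCODE transcripts in some genes. Defb38 is listed at 192 bases against 286, and Defb14 at 330 against 204. Limits at the GENCODE lengths were not worked out.

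**Figure D5:**
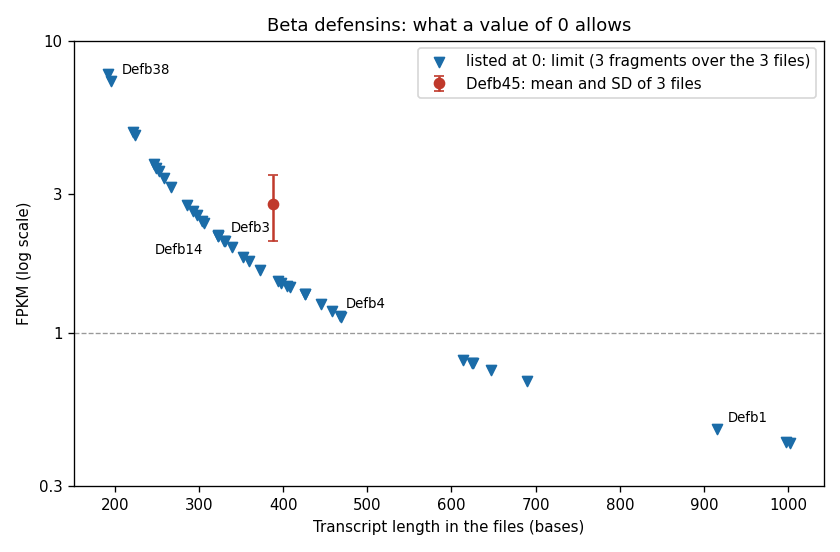
Limit that a value of 0 in every file allows (triangles, 3 fragments over the 3 files, FPKM on a log axis) against transcript length in bases for 41 beta defensins, with the mean ± SD over 3 files of Defb45 (circle) and a dashed line at 1 FPKM. The limits fall with length, from 7.68 FPKM for Defb38 to 0.471 FPKM for Defb1 and 0.421 FPKM for the longest transcript.

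Markers of tissues known for beta defensins were scarce as well. Of 18 epididymis and testis genes, none reached 1 FPKM and 16 were at 0 in every file. The shares over all gene symbols were 51.9% and 29.9%. Of 15 genes of squamous epithelium, 2 reached 1 FPKM, Sbsn with a mean of 2.69 FPKM and Krt10 with a mean of 1.70 FPKM.

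Receptors and sensors tied to defensins were measured in the same RNA. Of 12 such genes, 8 reached a mean of 1 FPKM, against 51.9% of all gene symbols. Il17rc, a subunit of the interleukin 17 receptor, had a mean of 31.8 FPKM, the adaptor Myd88 17.0 FPKM, Il22ra1, a subunit of the interleukin 22 receptor, 13.4 FPKM and the lipopolysaccharide receptor Tlr4 8.12 FPKM. Ccr6, a receptor that beta defensins bind, had 0.250 FPKM, and the melanocortin receptor Mc1r was at 0. Of 18 other antimicrobial genes of the gut epithelium, 13 reached 1 FPKM, with a median of 10.4 FPKM. The highest were Lypd8, which keeps bacteria off the epithelium, with a mean of 8567 FPKM, Saa1 with 1357 FPKM, Pigr with 933 FPKM and Wfdc2 with 384 FPKM. The lowest were Nos2 with 0.138 FPKM and Bpi, at 0 in every file.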

How the data were processed

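The authors deposited 1 isoform table per labelled library. FPKM values, with lower and upper 95% confidence bounds, and the coverage of each isoform, a signal, stand in them per the file headers. Per the submitters' processing notes, Cufflinks 2.2.1, TopHat2 2.1.1 and Bowtie2 2.3.4.3 were used. The sources used here do not state how strand and reads that match several places were handled. The notes name GRCm39, but 58 of 65 members compared had the start or end of RefSeq on GRCm38.p6, so positions are printed as GRCm38, counted from 1.

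FPKM were summed per gene symbol, with nothing rescaled. The upper bound less the FPKM was taken as 2 standard errors (SE), and SE squared over FPKM as the worth of 1 fragment. In single-isoform genes over 800 bases with up to 30 fragments, 64.2%, 64.2% and 64.3% of the values lay within 0.01 of a whole number, and their slope on length gave the depth. No count test was run, since the values were not whole throughout. Fragments of short genes and the limits use an effective length interpolated from other single-isoform genes. The spread between files was tested in single-isoform genes averaging at least 1 FPKM by a chi-square test with Benjamini-Hochberg adjustment at 0.05, on values scaled to a common median ratio, a procedure also tested on simulated data. Without a statement that the files came from separate animals, such p-values measure only technical spread. Intervals and limits cover counting error only.

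Sequences are GENCODE M21 transcripts, matched for 65 of 67 members. Candidates were found with BLAST+ 2.17.0, stretches were compared exactly or with up to 2 mismatches, and coding sequences were aligned with Biopython 1.88. Proteins were not compared. Named were members with a mean of 0.5 FPKM or more. From a marker list, genes were drawn from the 4 highest and 2 lowest, unless said otherwise. The values of 1 member that this rule takes are not reported here, though counts and sums include it. Members and lists were chosen with earlier results of these data known. Alternatives changed the thresholds, scaling, isoform sum, weighting, stretch length and files used. Calculations ran in Python 3.11.15 with SciPy 1.17.1, pandas 2.3.3 and numpy 2.4.6.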

Additional observations from a re-analysis of the deposited data

How the results depend on the processing

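Of the 67 members, 15 averaged at least 1 FPKM, and 12 to 16 did so with thresholds of 0.5 or 2 FPKM, with 1 FPKM asked in every file, after rescaling to TPM, by the highest isoform, weighted by depth or without each replicate. The count was 7 when the lower confidence bound had to lie above 0 in every file. The sum of the alpha defensin members, 187 FPKM, ranged from 170.3 to 196 without each replicate. It was 438 after rescaling to TPM, which multiplies every gene alike, and 293 with the alpha defensins under other symbols included, an alternative chosen after seeing the data. With up to 2 mismatches, 5 members had a stretch of their own in place of 11. With exact stretches of 36 to 152 bases the count was 11 or 12, the lengths of 76 and 152 bases having been chosen after seeing the data. The spread test called 2 to 5 genes without each replicate, against 9 with all files, and the cause was not tested. Single genes that moved by over 1.5 times were Defa23 (10.5 FPKM) and Defa-rs7 (2.49 FPKM) by the highest isoform, Defa26 (0.595 FPKM) without replicate 1, and Defa21, at 0 without replicate 3 and 0.221 FPKM weighted by depth. A search in the genome was not run. No paired analysis was possible because the samples form 1 group. Depth limits what a 0 says: for all but 8 of the 41 beta defensins with a limit, that limit lies at 1 FPKM or above.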
